A study of Mus musculus with 28 samples.

Results

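Chromatin that the authors' analysis marked as closed in Yap active cells comprised 1392 regions, every non-blank entry of the deposited list and thus chosen by the authors' ATAC-seq comparison of control with Yap active libraries, out of 8617 regions in the 4 lists of the study. The other lists held 6017 regions opened in Yap active cells, and 676 closed and 532 opened in Yap deleted cells. The regions came from mouse lung cells labelled alveolar type 2 (AT2), taken by selection for CD326 (EPCAM) once cells positive for CD31, CD271, CD90.2, Ter119, CD16/32 or CD45 had been depleted. Yap active cells were Stk3flox/flox/Stk4flox/flox with SftpcCreert2, and their controls carried the same floxed Stk3 and Stk4 without the recombinase. Yap deleted cells were Yapflox/flox with SftpcCreert2, and their controls were Yapflox/flox. The change was induced on postnatal day 3 and cells were taken on day 14. ATAC-seq, which marks open DNA by transposase insertion, used 50000 cells per library, with 3 Yap active libraries, 3 of their controls, 2 Yap deleted libraries and 1 of their controls. RNA-seq had 6, 4, 5 and 4 libraries in the same order. The sources used here do not say whether each library is a separate animal, so p-values measure only the spread between these samples.

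Yap is a transcriptional coactivator that binds DNA through the Tead factors. The Hippo kinases encoded by Stk3 and Stk4 lead to its phosphorylation and keep it out of the nucleus, so that loss of both kinases activates it. Sftpc is the surfactant gene that marks AT2 cells, and its promoter drives the tamoxifen-dependent recombinase here. AT2 cells secrete surfactant and are the progenitors of the flat AT1 cells of the gas exchange surface.

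Because the lists were made from ATAC-seq contrasts, every value of the regions that derives from the same libraries is a description and carries no test. The source column of the list named 1 control library compared with 2 active libraries for all 1392 regions, and the labels tie the list to 1 control library. The list therefore had no replication on the control side. The authors' score, whose scale is not stated, ranks the regions of 1 list and was not compared between lists as a measure of signal. Regions are 1-based on mm10.

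A few of the closed regions lay over an annotated gene start, where the sequence of the closed DNA can be shown. Of 32851 RefSeq promoter windows (GRCm38.p6, the 250 bases before each annotated start, of 27025 genes), 34 windows of 31 genes were covered over at least 50% of their length by a closed region. The 5 below are those of the highest-scoring regions that covered the whole window. Lower case is plain sequence 5′ to 3′ on the strand of the gene, and capitals mark every match, on either strand, to one of the searched motifs.
Gdf1 (chr8:70329515-70329764, plus strand): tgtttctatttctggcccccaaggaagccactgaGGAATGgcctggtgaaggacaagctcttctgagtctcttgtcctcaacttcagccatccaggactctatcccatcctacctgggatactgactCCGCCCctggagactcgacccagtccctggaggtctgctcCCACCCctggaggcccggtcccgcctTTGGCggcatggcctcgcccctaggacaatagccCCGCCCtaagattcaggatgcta
Celf3 (chr3:94482472-94482721, plus strand): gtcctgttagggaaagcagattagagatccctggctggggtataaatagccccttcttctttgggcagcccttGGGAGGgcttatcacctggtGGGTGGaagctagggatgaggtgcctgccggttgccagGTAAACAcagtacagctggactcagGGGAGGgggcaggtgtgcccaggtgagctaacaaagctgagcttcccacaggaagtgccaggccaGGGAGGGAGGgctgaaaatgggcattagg
Atp2a1 (chr7:126463074-126463323, minus strand): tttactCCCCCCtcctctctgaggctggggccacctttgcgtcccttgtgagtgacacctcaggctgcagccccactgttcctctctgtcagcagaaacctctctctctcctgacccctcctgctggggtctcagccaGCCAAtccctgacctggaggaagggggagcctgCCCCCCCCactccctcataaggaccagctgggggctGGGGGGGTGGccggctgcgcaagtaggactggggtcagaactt
Fezf2 (chr14:12345866-12346115, minus strand): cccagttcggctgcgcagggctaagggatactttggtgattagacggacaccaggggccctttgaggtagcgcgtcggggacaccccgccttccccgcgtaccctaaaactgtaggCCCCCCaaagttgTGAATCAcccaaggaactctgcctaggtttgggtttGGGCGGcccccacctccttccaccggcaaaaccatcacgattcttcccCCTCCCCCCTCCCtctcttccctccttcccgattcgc
Itln1 (chr1:171535295-171535544, minus strand): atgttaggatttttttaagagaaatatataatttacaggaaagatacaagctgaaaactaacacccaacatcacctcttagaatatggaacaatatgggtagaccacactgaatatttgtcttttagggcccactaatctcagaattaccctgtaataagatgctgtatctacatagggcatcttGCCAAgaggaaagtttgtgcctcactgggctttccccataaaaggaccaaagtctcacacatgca

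Gdf1 encodes a growth factor of the TGF-beta superfamily, Celf3 an RNA-binding splicing regulator of neurons, Atp2a1 the calcium pump of fast skeletal muscle, Fezf2 a transcription factor of cortical neurons and Itln1 an intestinal lectin. The searched motifs were GGAATG (Tead), TTGGC (1 arm of the NFI site), TGANTCA (AP-1), GGGNGG (Klf), CAAGTG (Nkx2-1), TGTTTAC (Fox), TTGCGCAA (Cebp), CCGGAAGT (Ets), CACGTG (E-box), and the full NFI and CTCF sites, on both strands. Matches to GGGNGG can overlap one another, and the NFI arm is contained in the full NFI site. Among the 34 windows the Tead motif occurred in 1, that of Gdf1 (2.94%), against 12.6% of all windows and 10.2% of the 2846 windows at least 50% covered by opened regions. The Nkx2-1 motif occurred in 0 of 34 windows, against 11.6% of all windows. The Klf motif was present in 79.4% of the 34, in 64.5% of all and in 87.5% of the opened windows. NFI arms were found in 47.1%, 41.5% and 42.5% of the same 3 sets, and AP-1 motifs in 5.88%, 6.75% and 4.25%. A match is a run of letters and does not show that a factor binds. The 34 windows are few and include overlapping windows of the same gene, such as those of Tnni1. No interval was computed for these motif shares, so a difference from all windows is not established. The 34 windows had a median GC content of 56.8% and a median of 4 CpG dinucleotides, against 52.4% and 6 over all windows and 62.8% and 18 over the opened ones. At least 8 CpG were present in 26.5% of the closed windows, 43.0% of all windows and 87.1% of the opened windows.

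MicroRNA genes were named by 73 closed regions at 69 genes, or 5.24% of the list (95% Wilson interval 4.19 to 6.54) against 2.29% (1.94 to 2.70) of the opened list. In Yap deleted cells the share was 3.99% (2.76 to 5.75) of closed and 4.32% (2.9 to 6.4) of opened regions, intervals that overlap with it. Mature sequences are shown for 4 microRNAs whose region was classed as a promoter, with the seed (bases 2 to 8) in capitals, from RefSeq (GRCm38.p6).
miR-139-3p: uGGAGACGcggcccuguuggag
miR-139-5p: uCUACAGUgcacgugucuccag
miR-6909-3p: uGCCUUCCccggccucccacag
miR-6909-5p: cAGGGGGGcuggaaugggcacu
miR-7019-3p: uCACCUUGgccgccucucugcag
miR-7019-5p: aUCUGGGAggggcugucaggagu
miR-7053-3p: cUCCUGUGucuccuuccccag
miR-7053-5p: uGGGGAAAggcaggcuacugg

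Mir139 (chromosome 7) had a region (101474330 to 101474830, score 9.63) centred 796 bp upstream and a second one in an intron of the phosphodiesterase gene Pde2a. The region of Mir6909 (chromosome 10, 79530824 to 79531518) had a score of 15.25 and a centre 81 bp upstream. Mir7053 (chromosome 7, 44538805 to 44539543, score 12.965) and Mir7019 (chromosome 4, 138316940 to 138317440, score 9.63) had centres 996 and 990 bp upstream. No 2 of these 8 mature sequences share a seed. Of the 69 microRNA genes 23 have a row in the RNA tables, whose libraries were selected for poly(A), so levels of mature microRNAs were not measured.

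The closed regions were mostly intronic or intergenic and rarely lay at gene starts. By the authors' annotation 669 of 1392 lay in introns (48.1%, 95% Wilson interval 45.4 to 50.7), 497 between genes (35.7%, 33.2 to 38.3), 114 in exons (8.19%, 6.86 to 9.75), 40 at gene ends (2.87%), 39 at promoters (2.80%, 2.06 to 3.81), 27 in 3′ UTRs, 3 in 5′ UTRs and 3 in noncoding exons. The opened regions of the same cells lay at promoters in 29.6% (28.4 to 30.7) and in introns in 32.7% (31.5 to 33.9). Promoter shares of the closed regions in Yap active and Yap deleted cells were close, at 2.80% and 2.66% (1.69 to 4.17). Exons separated those 2 lists, with 8.19% against 2.22% (1.35 to 3.63). These intervals cover counting error over regions only, and the regions of a list are not replicates of a condition.

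**Figure D1:**
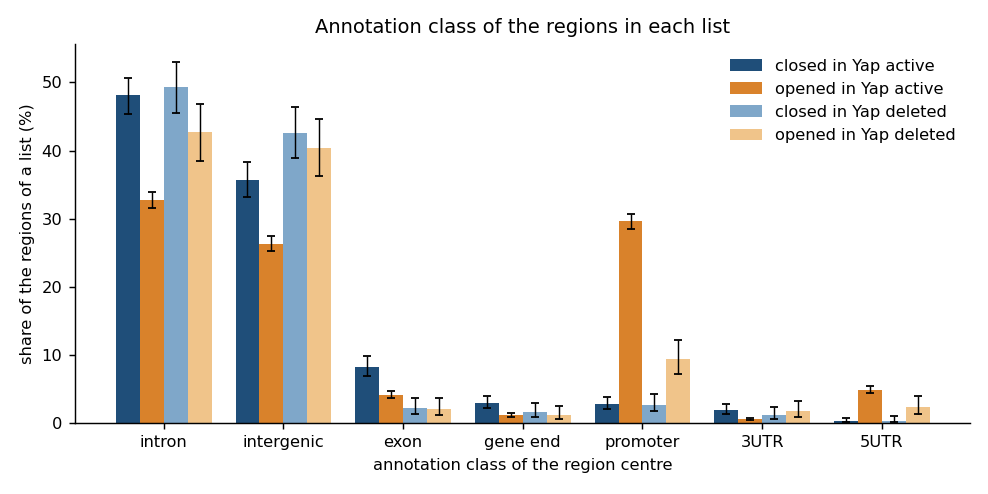
Share of the regions of each list (y axis, %) by the annotation class of the region centre (x axis), with 95% Wilson intervals as bars. The promoter bar of the regions closed in Yap active cells stands at 2.80%, against 29.6% for those opened in the same cells, and their exon bar at 8.19% is the highest of the 4 lists.

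Distance to the nearest gene start separated the lists in the same way. The median was 18238 bp for the closed regions (quartiles 6600 and 49790 bp) and 2179 bp for the opened ones. Within 1 kb of a start lay 71 closed regions (5.10%, 4.06 to 6.38) against 47.1% of the opened regions, and within 10 kb 485 (34.8%) against 60.4%. At 50 kb the shares were nearer, 1044 regions (75.0%) against 80.6%. Regions closed in Yap deleted cells lay within 1, 10 and 50 kb in 5.18%, 25.7% and 58.4%. Of the closed regions 488 (35.1%, 32.6 to 37.6) lay upstream of the start and the rest downstream, while 42.1% (40.9 to 43.4) of the opened regions lay upstream. Among intronic regions the first intron held 178 of 669 (26.6%, 23.4 to 30.1) of the closed and 50.7% (48.5 to 52.9) of the opened ones. In the list closed in Yap deleted cells 38.9% (35.3 to 42.6) lay upstream. There the first intron held 31.5% (26.8 to 36.7) of the intronic regions. A repeat was annotated at 308 of 1166 intronic and intergenic closed regions (26.4%, 24.0 to 29.0), against 12.7% (11.6 to 13.8) in the opened list, 22.7% (19.6 to 26.2) of those closed in Yap deleted cells and 11.3% (8.69 to 14.6) of those opened there. In the sets closed and opened in Yap active cells SINEs made up 8.40% and 2.81%, LTR elements 7.38% and 4.22%, and LINEs 4.72% and 2.11%.

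**Figure D2:**
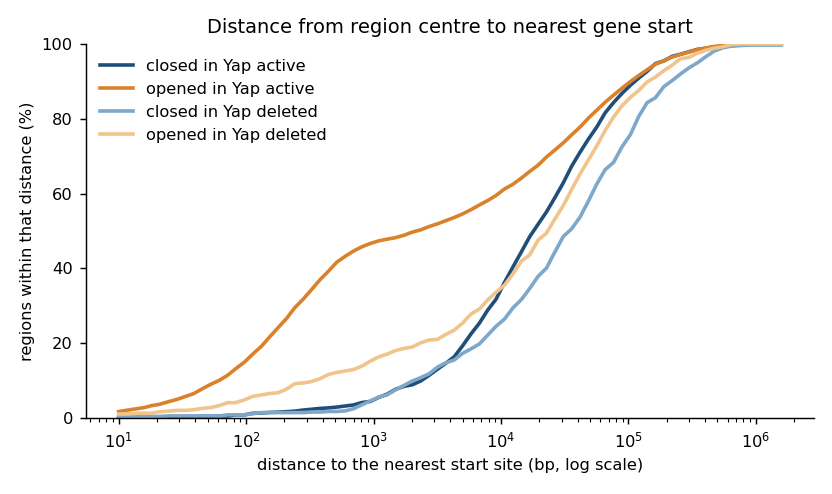
Share of regions (y axis, %) whose centre lay within a given distance of the nearest gene start (x axis, bp, log scale), 1 line per list. The line of the regions opened in Yap active cells reaches 47.1% at 1 kb, where the line of those closed in the same cells is at 5.10%, and the lines approach each other at 50 kb.

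Scores and widths of the closed regions lay mostly near the lower end of their ranges. The score ran from 8.795 to 40.2 with a median of 10.9 and took only 130 distinct values. The value 10.1 occurred 258 times and 9.63 occurred 211 times. A width of 501 bp, the minimum in the list, was found for 835 regions (60.0%), and in 2 of 6017 opened regions. Of the regions closed in Yap deleted cells 139 of 676 (20.6%) had it. Regions of 501 bp had a median score of 10.1 and wider ones of 12.6. In the highest 25% by score (12.55 to 40.2) 15.5% of regions had the minimum width and 19.3% lay in exons, UTRs or gene ends, against 86.8% and 12.4% in the lowest 25% (8.795 to 10.1). Opened regions had a median score of 42.8 and a median width of 1129 bp, and the 2 lists were scored in separate comparisons.

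The highest score belonged to intron 1 of Ptprs (chromosome 17, 56474042 to 56475920, score 40.2, centre 1499 bp inside the gene), which encodes a receptor tyrosine phosphatase known from axon guidance. Next came intron 1 of the noncoding gene BC018473 (chromosome 11, 116752067 to 116754426, score 32.05) and an exon of Mfsd12, which the list names for the nearer start of 4930404N11Rik (chromosome 10, 81362391 to 81363511, score 29.95). An intergenic region near the pseudogene Tmem181b-ps (chromosome 17, 6457614 to 6458960) had a score of 26.2. The promoter of Gdf1 shown above (chromosome 8, 70329022 to 70330387) had a score of 24.7, the highest of the 39 promoter regions. Other regions of the 10 highest-scoring lay in an exon of the type 2 cytokine gene Il13 (score 24.3), an intron of Rbfox3, a neuronal splicing factor gene (23.9), an intron of Elfn2 (23.65) and an intron of Tbkbp1 nearest to Mir7235 (22.9). At the other end stood an intron of P2ry6 named for Arhgef17 (chromosome 7, 100941641 to 100942306, score 9.005) and an exon of Camta1 named for Gm13090 (chromosome 4, 151143462 to 151144221, score 8.795).

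Promoter regions by rank were led, after Gdf1, by Fezf2 (15.5), Mir6909 (15.25), Mir187, Fgf14 (13.0), Hmx3 (13.0), Mir7053 (12.965), Slbp (12.6), Pth1r (12.6) and Mcf2l (12.55). Fgf14 encodes an intracellular FGF homologue of neurons, Hmx3 a homeobox factor of the inner ear, Slbp the protein that binds histone mRNA stem loops, and Pth1r the parathyroid hormone receptor.

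Closed regions were spread thinly over genes. The 1392 regions named 1280 genes, of which 1182 were named once, 98 at least 2 times and 11 at least 3 times. Arhgef10l, a guanine nucleotide exchange factor gene, Fam19a5, a secreted neural protein gene, and H2afy, the gene of histone macroH2A1, had 4 regions each. Cdh23, A530013C23Rik, Efna2, 4930572O13Rik and Tmem163 were the next by summed score with 3 each. Neighbouring closed regions started within 50 kb of each other in 124 of 1371 neighbour pairs, and the median gap was 507 kb. The gene with the nearest start was often not the gene that held the region. Of 813 regions inside a transcript that matched RefSeq, 266 (32.7%) named another gene than the host, against 16.3% in the opened list. In Yap deleted cells the share was 25.4% of closed and 24.4% of opened regions. Hosts were matched by transcript name without a check of position. Some intronic regions thereby received a microRNA gene such as Mir5098 as host, so these shares are approximate. Thus 1 of the 2 regions named for Nfkb2 lay in an intron of Gbf1, and 1 of the 2 named for Tfcp2l1 in an intron of Clasp1.

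Protein-coding genes were named by 1181 regions (84.8%, 82.9 to 86.6), noncoding RNA genes by 199 (14.3%), pseudogenes by 9 and snoRNA genes by 3. The opened list named protein-coding genes in 88.9% (88.0 to 89.6). Predicted or RIKEN genes were named by 141 closed regions (10.1%, 8.65 to 11.8) and by 9.42% (8.71 to 10.2) of the opened regions. Olfactory or vomeronasal receptor genes were named by 3 closed regions.

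Closed regions were unevenly spread over chromosomes. Chromosome 7 carried 149 of them (10.7%, or 10.3 per 10 Mb up to its last RefSeq gene), chromosome 11 carried 105 (8.61 per 10 Mb) and chromosome 3 carried 37 (2.31 per 10 Mb). The X chromosome had 13 (0.934%, 0.547 to 1.59, or 0.762 per 10 Mb) against 3.69% (3.24 to 4.20) of the opened regions. The X share of the authors' peaks was 4.47% and 2.58% in the 2 control peak lists and 5.42% and 2.53% in the 2 active ones. The sources used here do not give the sex of the animals behind the ATAC-seq libraries, and its part in the X share was not tested. The last 10% of a chromosome's length held 20.3% of the closed regions and 10.4% of the opened ones, and the median position was 65.4% and 52.1% of the way along. Per 10 Mb the opened regions ran from 13.0 on the X chromosome and 17.3 on chromosome 14 to 27.8 on chromosome 8, and the Y chromosome had 0 regions of either list.

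**Figure D3:**
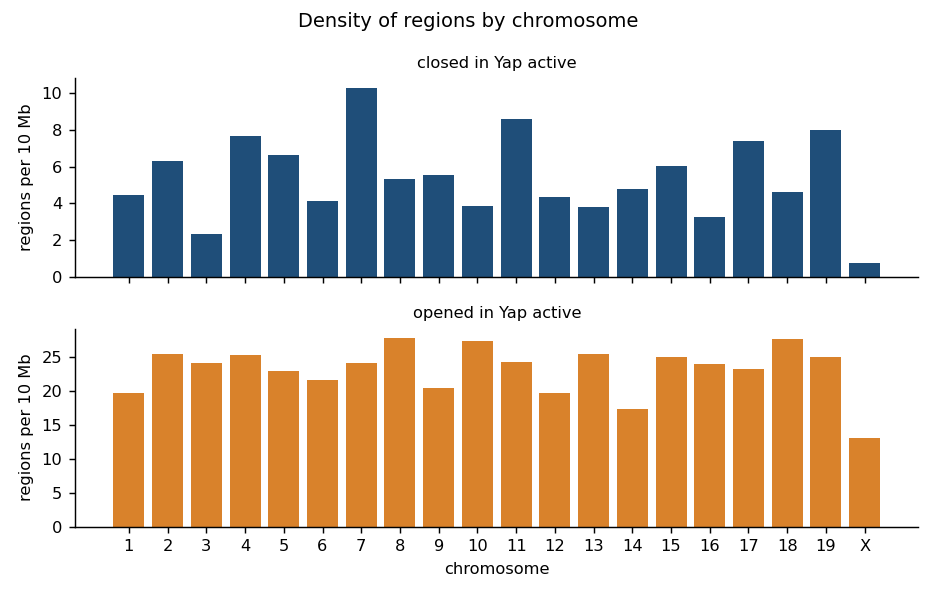
Regions per 10 Mb of chromosome (y axes, each with its own scale) closed and opened in Yap active cells, by chromosome (x axis; Y, with 0 regions, is not drawn). The closed regions run from 0.762 on X and 2.31 on chromosome 3 to 10.3 on chromosome 7, and the opened ones from 13.0 on X to 27.8 on chromosome 8.

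The authors' 4 broad peak lists allowed the regions to be set against other calls. As far as the sample descriptions name the lists, control R1 belongs to control ATAC library 2, control R2 to control libraries 1 and 3, active R1 to active libraries 2 and 3, and active R2 to active library 1. The descriptions are the only source for this, and the names in the source column of the region list were not tied to samples otherwise. A peak in control R1 overlapped 1235 closed regions by at least 1 bp (88.7%, 87.0 to 90.3), and a peak in active R1 overlapped 0 of 1392 (upper limit 0.275%). Control R2 overlapped 30 regions (2.16%, 1.51 to 3.06) and active R2 overlapped 43 (3.09%, 2.30 to 4.13). The regions opened in the same cells overlapped these lists in 0.216% (control R1), 11.6% (control R2), 93.6% (active R1) and 33.4% (active R2). The values for control R1 and active R1 follow from how the regions were chosen. That for active R2 may follow from it too, since 2 active libraries were compared, and is no independent check. Control R2 and active R2 differ in their number of peaks, so their shares were not compared as levels of signal. In all, 1208 closed regions overlapped control R1 and no other list, and 152 overlapped none of the 4.

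**Figure D4:**
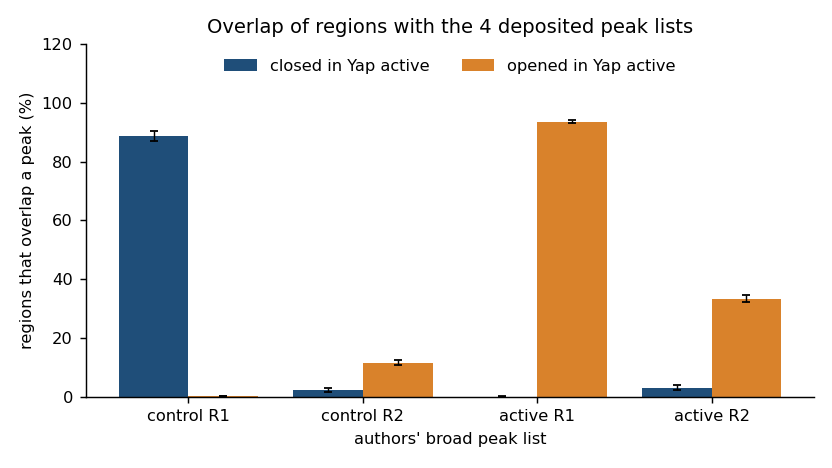
Share of the regions closed and opened in Yap active cells (y axis, %) that overlapped a peak of each of the authors' 4 lists (x axis), with 95% Wilson intervals as bars. Closed regions reach 88.7% in control R1 and at most 3.09% in the other lists, and opened regions reach 93.6% in active R1.

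These lists differed in size and in strength. Control R1 held 345109 peaks over 65.2 Mb, control R2 28418 peaks over 4.29 Mb, active R1 61739 over 10.5 Mb and active R2 53714 over 7.42 Mb. The highest −log10 q in control R1 was 0.985, so that 0 of its peaks had a q-value under 0.1, while control R2 had 31, active R1 782 and active R2 65 such peaks. Control R1 peaks that touched closed regions had a median enrichment of 2.60-fold and a highest −log10 q of 0.298. Only 168 peaks of control R1 overlapped a peak of active R1, or 0.0487% of the first list and 0.272% of the second. The sources used here do not give the background each list was called against.

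Closed regions hardly met the other region lists. A region in front of Ccr6 (chromosome 17, 8243105 to 8243741, score 12.15) and one in an exon of Map3k11 (chromosome 19, 5690162 to 5690979, score 11.5) overlapped opened regions of the same cells by 62 and 207 bp. Ccr6 encodes a chemokine receptor and Map3k11 a kinase upstream of JNK. The promoter region of Gdf1 overlapped a region closed in Yap deleted cells by 71 bp. The intergenic region near 1700073E17Rik (chromosome 6, 145378186 to 145378819, score 9.855) overlapped another by 342 bp. No closed region overlapped one opened in Yap deleted cells (0 of 532). Of the 1280 genes named by closed regions, 338 were also named by an opened region of the same cells (26.4% of the closed genes, 7.07% of the opened genes), 62 by a region closed in Yap deleted cells (4.84% and 10.3%) and 42 by a region opened there (3.28% and 8.20%).

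RNA was measured in other libraries than the ATAC-seq and was tested across all genes. The Yap active table held 34979553 to 43544559 counts per library. Surfactant and other AT2 markers (8 genes) summed to 41200 to 142000 CPM (counts scaled to a common library size) in Yap active and 46300 to 147000 CPM in control libraries. AT1 markers (5 genes) summed to 3440 to 5470 and 1360 to 5170 CPM, airway secretory markers (2 genes) to 3950 to 16600 and 2780 to 9580 CPM, fibroblast markers (5 genes) to 661 to 3130 and 1190 to 3350 CPM, endothelial markers (5 genes) to 17.3 to 112 and 34.1 to 255 CPM, and leukocyte markers (5 genes) to 29.5 to 76.6 and 30.3 to 55.0 CPM. The first principal component (58.3% of variance) separated active libraries 2 to 6 and control 4, called set A here, from active 1 and controls 1 to 3, called set B. Esr1 encodes the estrogen receptor whose hormone-binding part belongs to CreERT2 fusions. The library labelled active 1 had 1.97 CPM of it and the other active libraries 212 to 336 CPM. Control 2 by its label had 159 CPM, while the remaining controls ranged from 0.966 to 3.18 CPM. For Stk3 the values were 49.4 CPM in active 1 and 30.6 to 35.5 CPM in the other active libraries, against 53.3, 49.8, 54.2 and 34.1 CPM in controls 1 to 4. Stk4 held 124 CPM in active 1 and 78.7 to 94.4 CPM in the other active libraries. Controls 1 to 4 held 103, 105, 111 and 120 CPM of it, so control 4 was the lowest control for Stk3 and the highest for Stk4. Group and set coincide in 8 of the 10 libraries, so results are also given with the set as a covariate. Set A holds 1 control and set B 1 active library, so a value within a set describes a single library against the others. Both libraries against their labels at Esr1, active 1 and control 2, are in set B. In bulk RNA fewer cells of a type and less RNA per cell cannot be told apart.

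Genes near closed regions were expressed at lower levels than genes near opened ones. Within 50 kb the closed regions named 984 genes, of which 931 have a row in the RNA table, 30 of them by an older name. Their median level was 9.26 CPM, against 5.03 CPM over all 23478 genes and 29.0 CPM for the 4144 genes named by opened regions. A mean under 1 CPM was found for 294 of the 931 (31.6%), for 40.4% of all genes and for 13.4% of the opened genes, and 52 of the 931 had 0 counts in every library of the table. Genes with a promoter-class region were lower still, with a median of 0.188 CPM and 22 of 35 under 1 CPM. The 35 include microRNA genes such as Mir187 (0 CPM in all 10 libraries), whose mature products these poly(A) libraries did not measure. The median without microRNA genes was not computed. Gdf1 had 0 counts in all 10 libraries, and Fezf2 and Hmx3 did not exceed 0.182 and 0.118 CPM. Of the genes with printed promoters, Celf3 ranged from 1.18 to 2.60 CPM, Atp2a1 from 1.78 to 4.13 CPM and Itln1 from 0.351 to 5.73 CPM over the 10 libraries. Of the 10 highest-scoring regions, the genes Il13 and Rbfox3 did not exceed 0.151 and 0.32 CPM. Ptprs lay at 92.7 to 197 CPM in Yap active and at 114 to 225 CPM in control libraries (log2 fold change −0.32 ± 0.25 SE, adjusted p = 0.455 by edgeR). Of the 35 promoter genes 13 had a mean of at least 1 CPM and 8 of at least 10 CPM. Slbp and Mcf2l were among the latter, at 18.0 to 28.5 and 23.8 to 55.7 CPM, and Pth1r lay at 1.75 to 13.0 CPM.

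No gene near a closed region passed the test in Yap active cells. The quasi-likelihood test of edgeR with Benjamini-Hochberg adjustment called 0 of 15685 genes (0%) and 0 of the 706 near closed regions that passed the count filter, while 225 did not pass it. At an unadjusted p under 0.05, 61 of the 706 were higher (8.64%) and 21 lower (2.97%), against 6.65% and 5.98% of all genes tested. These counts, like the shares of all genes, changed when single libraries were left out. Without control 4 they were 190 higher (26.5%) and 71 lower (9.90%) of 717, against 20.3% and 14.6% of all genes, and without active 1 they were 165 (23.6%) and 81 (11.6%) of 699, against 18.4% and 19.3%. Without control 3 they were 20 (2.81%) and 8 (1.12%) of 713, against 1.71% and 2.16%. Leaving out any of the other libraries gave 25 to 37 higher (3.52% to 5.26%) and 8 to 21 lower (1.13% to 2.98%), against 1.82% to 3.86% and 2.52% to 4.61% of all genes. Without active 1 and control 2 they were 122 and 76 of 707, against 13.6% and 15.7% of all genes. With the set as a covariate they were 23 (3.26%) and 6 (0.85%) of 706, against 1.86% and 0.937% of all genes. DESeq2 called 18 genes (0.115%) and 1 of the 706, Il4ra, and limma-voom with sample weights called 8845 (56.4%) and 375 of the 706. Of the 706, 396 (56.1%) were higher and 310 lower, with a median log2 fold change of 0.063, against 49.4% higher and a median of −0.005 over all genes. Among the 318 within 10 kb the median was 0.114, and among the 593 genes whose own transcript held a region it was 0.059.

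The shift differed between libraries of a group. The median deviation of the 706 genes from their mean over libraries, on the log2(CPM + 1) scale, was −0.083, −0.077 and −0.087 in controls 1 to 3 and 0.046 in control 4. In active libraries 2 to 6 it was 0.067, 0.084, 0.051, 0.089 and −0.039, and in active 1 it was −0.041. Control 4 thus lay with most active libraries, and active 1 and active 6 lay between them and the other controls. Over all genes the same medians lay between −0.012 and 0.022. With the set as a covariate the median log2 fold change of the 706 was 0.015 against 0.001 over all genes, within set A (1 control) it was 0.042 against 0.032, and within set B (1 active library) it was −0.021 against −0.026. Cell type markers moved between the same groups. Of 24 AT2 markers 22 were higher (median log2 fold change 0.32), of 20 mesenchymal and mesothelial markers 20 were lower (−0.79) and of 16 endothelial markers 15 were lower (−1.55), with 0 called by edgeR. The sum of the 8 AT2 markers followed the library set. It was 89300 to 142000 CPM in active libraries 2 to 6 and 147000 CPM in control 4. Active 1 had 41200 CPM and controls 1 to 3 had 46300 to 63800 CPM. Mesothelial markers (3 genes) summed to 620 CPM in active 1 and 91.6 to 251 CPM in the other active libraries, against 467 to 786 CPM in controls 1 to 3 and 340.0 CPM in control 4. The part of these markers' cells in the shift was not tested.

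Il4ra, the interleukin 4 receptor chain that also serves interleukin 13, had the smallest p of the genes near closed regions that were higher. Its region lay in its last exon (chromosome 7, 125575369 to 125575998, score 11.75). The lowest, median and highest Yap active libraries held 71.4, 81.3 and 87.3 CPM, and controls 1 to 4 held 32.5, 34.8, 32.6 and 69.2 CPM. The groups did not overlap, and control 4 stood nearer to the active libraries than to the other controls. The log2 fold change was 0.91 ± 0.21 SE (adjusted p = 0.366), and without control 4, a fit that called 0.0126% of all genes, it was 1.26 (adjusted p = 0.00347). Tmem173, which encodes the innate immune adaptor STING, held 16.5 to 20.9 CPM in Yap active and 11.7, 9.41, 9.46 and 15.4 CPM in control libraries (log2 fold change 0.63 ± 0.16 SE). Aim1l lay at 8.44 to 16.0 CPM against 5.31 to 7.54 CPM (0.74 ± 0.21 SE). For these 2 genes as well the groups did not overlap. All were named for their small p, so the separation follows from that choice and is no further evidence. The share of all genes with separate groups was not counted.

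Nfkb2, an NF-κB subunit gene with 2 closed regions, lay at 38.1 to 50.1 CPM in Yap active and at 27.9, 35.9, 28.2 and 38.5 CPM in control libraries (0.47 ± 0.13 SE). Wnt7b, a Wnt ligand made by lung epithelium, held 35.3 CPM in active 1 and 64.3 to 90.2 CPM in the other active libraries, against 31.3, 44.2, 34.0 and 46.5 CPM in controls (0.80 ± 0.24 SE, 0.33 with the set as a covariate). Its region was intergenic, 13804 bp upstream. Shb, an adaptor of receptor kinases, held 91.1 to 148 and 69.5 to 106 CPM (0.53 ± 0.16 SE). All 6 of these genes had an adjusted p of 0.366 by edgeR.

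Among lower genes the smallest p belonged to 2310015A10Rik, at 18.0 to 27.3 CPM in Yap active and 26.0, 48.5, 33.8 and 22.9 CPM in control libraries (log2 fold change −0.58 ± 0.20 SE). Mgll, the lipase that releases fatty acids from monoglycerides, lay at 34.0 to 66.0 CPM against 87.2, 75.6, 71.1 and 47.7 CPM (−0.60 ± 0.22 SE). Its groups overlapped through control 4 and the active libraries 1 and 3. Cpt1c, a brain carnitine palmitoyltransferase gene (−0.66 ± 0.24 SE), Ccser2 (−0.38 ± 0.14 SE), Paxbp1 (−0.56 ± 0.21 SE) and Trim68, a ubiquitin ligase gene (−0.32 ± 0.12 SE), were the others. All 6 had an adjusted p of 0.366 by edgeR and overlapping groups, and control 4 was the lowest control for each of them.

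**Figure D5:**
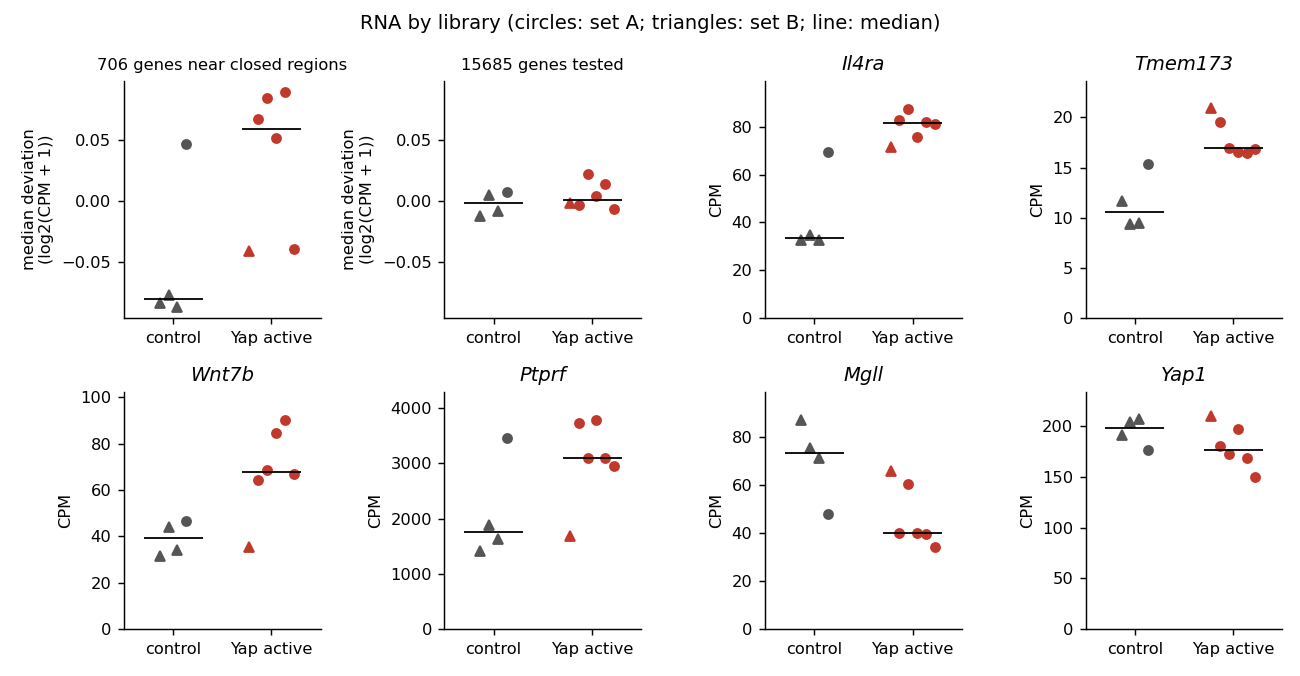
RNA in 6 Yap active and 4 control libraries, 1 point per library (circles, set A; triangles, set B) with the group median as a line. The first 2 panels give the median deviation from the mean over libraries (log2(CPM + 1)) of 706 genes near closed regions and of all 15685 genes, and the others give CPM of 6 genes, in which control 4 (the circle among controls) stands with the active libraries of set A for Il4ra and Ptprf.

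Yap1 itself had a closed region, in its intron 4, 46237 bp from the start (chromosome 9, 7958109 to 7958609, score 12.6). Its RNA lay at 150, 177 and 210 CPM in the lowest, median and highest Yap active libraries and at 192, 204, 207 and 177 CPM in controls (log2 fold change −0.12 ± 0.11 SE, adjusted p = 0.521 by edgeR). In the Yap deleted line, where the gene is the target, the log2 fold change was −0.78 (adjusted p = 0.247). It was the only one of 26 Hippo components with a closed region within 50 kb, while 13 (50.0%) had an opened one.

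The 17 gene lists held 418 distinct genes, of which 27 (6.46%) had a closed region within 50 kb. In the count data 931 of 23478 genes (3.97%) had one and 4144 (17.7%) had an opened one, and 9 of the 17 lists lay above the former share. Limma-voom called 56.4% of all genes. Of the 27 it called Cldn18, Nuak2, Foxf2, Ptprf, Wnt7b, Spred2, Ccne1, Cdk1, E2f1, Erg, Pecam1, Muc5b, Muc5ac, Plin2 and Fdft1. Of 24 AT2 markers 0 had a closed region and 7 (29.2%) had an opened region. Of 25 AT1 markers Emp2 and Cldn18 had one. Emp2, a tetraspan membrane protein gene, lay at 1280 to 1760 CPM in Yap active and 922 to 1790 CPM in control libraries (log2 fold change 0.18 ± 0.21 SE). Cldn18, a tight junction claudin gene, lay at 1620 to 2290 and 1370 to 2230 CPM (0.20 ± 0.19 SE). Both had regions between genes with scores under the list's median (10.5 and 10.1).

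Of 25 Yap and Tead target genes, 3 had a closed region. Nuak2, a kinase gene, held 21.7 to 40.0 CPM in Yap active and 16.3, 23.2, 14.8 and 32.0 CPM in control libraries (log2 fold change 0.59 ± 0.24 SE). Its region lay in its own first intron (chromosome 1, 132324597 to 132325242, score 13.8). Foxf2 (−0.77 ± 0.58 SE) ranged from 13.2 to 109 CPM in Yap active and from 45.1 to 159 CPM in control libraries. Arhgef17, a guanine nucleotide exchange factor gene, lay at 260 to 334 against 219 to 296 CPM (0.17 ± 0.13 SE). The adjusted p of the 3 genes lay between 0.366 and 0.452 by edgeR.

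Among 31 axon guidance and receptor phosphatase genes Ptprs and Ptprf had closed regions within 50 kb. Ptprf held 1690 CPM in active 1 and 2960 to 3790 CPM in the other active libraries, against 1410, 1880, 1630 and 3460 CPM in controls (0.54 ± 0.30 SE, adjusted p = 0.368 by edgeR). All 6 libraries of set A thus lay above all 4 of set B, and with the set as a covariate the value was −0.01. Of 30 Wnt and Notch genes Wnt7b and Wnt4 had one, and Wnt4 lay at 9.99 to 28.2 CPM in Yap active and 23.3, 22.1, 23.2 and 7.26 CPM in control libraries (−0.10 ± 0.36 SE). Of 32 lung epithelial transcription factor genes Tfcp2l1 (0.07 ± 0.25 SE) and Id2 (0.26 ± 0.25 SE) had one, while 22 (68.8%) had an opened region.

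Cell cycle genes near closed regions were Ccne1, Cdk1 and E2f1 of 30. E2f1, a factor of S-phase entry, held 19.9 to 38.3 CPM in Yap active and 16.6, 7.59, 9.11 and 22.9 CPM in control libraries (log2 fold change 0.99 ± 0.32 SE). Cdk1, the mitotic kinase, held 9.40 to 53.9 CPM and 8.97, 1.53, 2.31 and 31.7 CPM (1.02 ± 0.81 SE). Over the whole list 27 genes were higher and 3 lower, with a median of 0.78. By edgeR 0 were called. Limma-voom, which called 56.4% of all genes, called 25 of the list, Ccne1, Cdk1 and E2f1 among them. In the airway epithelial list the gel-forming mucin genes Muc5b and Muc5ac of 20 had a closed region. Muc5b lay at 205 to 590 CPM in Yap active and at 170, 87.1, 71.9 and 323 CPM in control libraries (1.10 ± 0.43 SE). Muc5ac lay at 14.6 to 70.3 and 7.24 to 41.7 CPM (1.0 ± 0.55 SE). Control 4 was the highest control for each of these 4 genes.

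Lipid synthesis had the largest share of the 17 lists with a closed region within 50 kb, 5 of 29 genes (17.2%), namely Ppara, Plin2, Fdft1, Dgat2 and Lss. Of these 2 were higher and 3 lower. By edgeR 0 were called, and limma-voom, which called 56.4% of all genes, called Plin2 and Fdft1. Plin2, which coats lipid droplets, lay at 79.9 to 128 CPM in Yap active and 60.9 to 125 CPM in control libraries (0.28 ± 0.22 SE). Fdft1, the squalene synthase gene, lay at 29.7 to 65.3 and 23.3 to 74.2 CPM (0.35 ± 0.32 SE). Ppara, a fatty acid receptor, lay at 15.4 to 23.9 and 17.4 to 33.8 CPM (−0.31 ± 0.20 SE).

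Among markers of other cells, 2 of 17 endothelial genes, Erg and Pecam1, had a closed region, and 0 of 20 mesenchymal and mesothelial genes and 0 of 22 leukocyte genes did. Pecam1, which encodes the CD31 antigen used for depletion, held 14.6 CPM in active 1, 0.795 to 1.72 CPM in the other active libraries and 19.6, 4.63, 41.3 and 0.939 CPM in controls (log2 fold change −2.34 ± 1.10 SE, adjusted p = 0.366 by edgeR). Summed endothelial markers moved with it, summing to 68.4 to 255 CPM in controls 1 to 3 but 17.3 to 42.0 CPM in the active libraries other than active 1. The part of these cells in the result was not tested. Smad6 (0.21 ± 0.13 SE) of TGF-beta signalling, Spred2 (0.37 ± 0.21 SE) of ERK signalling and Pcdh10 (0.20 ± 0.47 SE) of cell adhesion were the only genes of their lists within 50 kb, and 0 of 13 AP-1 factor genes had one.

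Of the genes with most closed regions edgeR called 0. Limma-voom, which called 56.4% of all genes, called Arhgef10l, H2afy, Tmem163 and Efna2 (adjusted p from 0.00131 to 0.0283). It did not call Fam19a5 or A530013C23Rik. Arhgef10l lay at 39.7 to 69.6 CPM in Yap active and at 38.3, 37.3, 35.7 and 58.3 CPM in control libraries (log2 fold change 0.37 ± 0.20 SE, adjusted p = 0.367 by edgeR). H2afy lay at 108 to 134 CPM against 104, 104, 96.6 and 110 CPM (0.27 ± 0.09 SE, adjusted p = 0.366 by edgeR), so that only the lowest active library fell within the control range. Tmem163 (0.51 ± 0.30 SE) and Efna2 (−0.28 ± 0.23 SE) turned with the set as a covariate, to −0.12 and 0.03. Fam19a5 was at 0.20 ± 0.31 SE, while Cdh23 did not exceed 0.39 CPM and 4930572O13Rik had 0 counts. Of the genes whose closed region met an opened one, Map3k11 lay at 73.7 to 132 CPM and 61.5 to 122 CPM (0.50 ± 0.22 SE), and Ccr6 did not exceed 2.68 CPM.

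In the Yap deleted line, whose closed regions are other regions, the same genes gave no call either. Of 723 tested near the regions closed in Yap active cells, edgeR called 0, against 1 of 15818 (0.00632%). At an unadjusted p under 0.05, 42 were higher (5.81%) and 69 lower (9.54%), against 6.13% and 9.18% of all genes. DESeq2 called 42 of the 723 and 792 of all genes (5.01%). The median log2 fold change was 0.052 over the 723 and 0.010 over all genes. Esr1 held 242 to 534 CPM in the Yap deleted libraries, 86.3 CPM in the library labelled control 2 and 0.95 to 3.93 CPM in the other controls. Controls 1 and 2 of this line stood apart on the first principal component (57.0% of variance), and without them the medians were −0.021 and 0.006. In that edgeR fit 13 of 735 genes were higher (1.77%) and 46 lower (6.26%) at an unadjusted p under 0.05. Over all 16073 genes of the fit the shares were 2.48% and 3.71%.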

How the data were processed

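The members and the gene lists were chosen with earlier results of these data known. Per the submitters' processing notes the authors used Trim Galore, Bowtie2, Cufflinks, DESeq and HOMER on mm10, with no versions or roles given. Region lists carry, per the file headers, a HOMER score, an annotation class and other values such as the distance to the nearest start site, as deposited by the authors. After its last region the closed list has 9793 blank rows. The authors' broad peak lists give a display score, fold enrichment (a ratio), −log10 p and −log10 q. The authors' gene tables hold raw counts, as the whole numbers in the deposited files show (counting program not given in the sources used here). Every per-sample column was used.

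Counts were TMM-scaled, filtered by filterByExpr and tested with edgeR 4.0.16 (quasi-likelihood, two-sided, R 4.3.3), with DESeq2 1.42.0 and limma 3.58.1 as alternatives. Genes with an adjusted p under 0.05 were called. Of the gene names 27 had become dates and 2 were duplicated. On simulated counts with 4-fold changes edgeR recovered 198 of 198 changed genes among 15645 for the Yap active libraries, with 17 false calls. For the Yap deleted libraries it recovered 197 of 197 among 15986, with 10 false calls. Recovery of changes under 4-fold was not tested. The simulation gave every gene the same spread and no difference between library sets, so it does not show recovery in the real counts. There Esr1 and Pecam1, at log2 fold changes of 2.42 and −2.34 in the Yap active line, were not called by edgeR. A gene that was not called may thus still differ, also by more than 4-fold. Regions were tied to genes within 50 kb and overlapped at 1 bp or more. Named were the 10 highest-scoring regions (1 of them is not reported here), the 10 highest promoter regions, the 2 lowest, regions shared with Yap deleted lists, the 8 genes with most regions, up to 6 genes per direction with the smallest p at 4 CPM or more, up to 3 genes per list, and Yap1, Stk3, Stk4 and Esr1. Ccr6, Map3k11, Celf3, Atp2a1, Itln1 and the microRNA sequences were chosen after their values were seen.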

Additional observations from a re-analysis of the deposited data

Results flagged for a closer look

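In 9 of 84 groups of libraries (42 named genes, 2 groups each) 1 library stood apart from the rest of its group by Dixon's ratio at the 95% level. The ratio was taken on log2(CPM + 1), while plain CPM are printed below. A chance rate of about 1 in 20 holds for independent groups. These groups share the same libraries, and some genes were chosen by their p, so the count has no known chance rate. Control 4 was that library for Il4ra (69.2 CPM, others 32.5 to 34.8), Arhgef10l (58.3 CPM, others 35.7 to 38.3) and Wnt4 (7.26 CPM, others 22.1 to 23.3). Active 1 was that library for Wnt7b (35.3 CPM, others 64.3 to 90.2), Paxbp1 (42.7 CPM, others 23.4 to 28.7), Ptprf (1690 CPM, others 2960 to 3790), Erg (9.75 CPM, others 0.438 to 1.69) and Pecam1 (14.6 CPM, others 0.795 to 1.72). Pcdh10 was flagged for active 2 (0.0592 CPM, others 0.248 to 0.303). In 8 of the 9 cases the library was the one whose library set differed from most of its group.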

How the results depend on the processing

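Of 125 alternative values for counts, shares and medians, 98 stayed within the limits set for no change, and of 798 for single genes 723 did. RLE scaling, no count filter and the library set as a covariate left the count of called genes at 0 in the Yap active line. Over all genes that count was 18 with DESeq2, 8845 with limma-voom, 13 without active 1 and control 2, 2 within set A (1 control), 6 within set B (1 active library) and 0 to 2 when each library was left out in turn (2 without active 1, and 2 without control 4). In the fits within a set the lone library is assumed to vary like the others. Values within set B compare active 1 with controls that include control 2, both against their labels at Esr1. Of the genes near closed regions DESeq2 called 1, limma-voom 375 and the fits without 1 library 0 to 1 (Il4ra, without control 4). Their median log2 fold change was −0.0207 within set B. In the Yap deleted line DESeq2 called 42, and the median was 0.0074 without a count filter, 0.0082 to 0.0481 when each library was left out and −0.0206 without controls 1 and 2.

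Replicate numbers did not pair the libraries. Same-numbered libraries correlated at 0.524, 0.00916, 0.052 and 0.495 in the Yap active table and at −0.256, 0.445, 0.259 and 0.290 in the Yap deleted table. With the replicate block 0 genes were called in the Yap active line, 0 near closed regions in either line, the medians were 0.0655 (Yap active) and 0.0138 (Yap deleted), and Id2 was at −0.01.

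With the library set as a covariate log2 fold changes turned for Cldn18 (−0.03), Yap1 (0.01), Tfcp2l1 (−0.30), Ptprf (−0.01), Wnt4 (0.71), Spred2 (−0.03), Erg (0.59), Plin2 (−0.04), Fdft1 (−0.19), Efna2 (0.03) and Tmem163 (−0.12). Within set A they turned for Emp2 (−0.10), Cldn18 (−0.10), Tfcp2l1 (−0.19), Ptprf (−0.04), Wnt4 (1.12), Cdk1 (−0.31), Erg (0.11), Pecam1 (0.12), Muc5ac (−0.17), Plin2 (−0.13), Fdft1 (−0.42) and Efna2 (0.18). Within set B they turned for Wnt7b (−0.05), Yap1 (0.07), Foxf2 (0.01), Tfcp2l1 (−0.41), Id2 (−0.26), Wnt4 (0.31), Spred2 (−0.15), Fam19a5 (−0.45), Tmem163 (−0.50) and Erg (1.03), and with limma-voom for Pcdh10 (−0.33). Leaving out each library gave −0.09 to 0.23 for Tfcp2l1, −0.37 to 0.02 for Wnt4 and −2.12 to 0.05 for Erg. The cause was not tested.

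Closed regions covered by peaks over at least 50% of their length were 59.1% in control R1, 0% in control R2 and 0.0718% in active R2. With peaks at or above the median −log10 p of each list, 73.4%, 0.718% and 0.862% overlapped, and of the higher-scoring 50% of regions 90.5% overlapped control R1. Within 1 kb of a start lay 5.10%, in place of the 2.80% classed as promoters. The 2 overlaps with Yap deleted regions fell to 1 at an overlap of 50% of the region and to 1 for centres within 1 kb. Motif searches in whole regions were not run, since no genome was used here. The library sets, the fits within them, the gene that holds a region and the −log10 p limit were chosen after seeing the data. With 1 control library behind the closed list, its regions carry no estimate of spread, and no depth per ATAC-seq library was used here.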
